A study of Mus musculus with 7 samples.

Results

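The genes described are 6 inhibitors of cyclin-dependent kinases (CDK), *Cdkn1a*, *Cdkn1b*, *Cdkn1c*, *Cdkn2a*, *Cdkn2b* and *Cdkn2c*, together with *Trp53*, which encodes p53, and 3 genes that p53 activates, *Mdm2*, *Ccng1* and *Gdf15*. They were chosen by symbol, and each of the 10 was found once among the 38472 genes of the table. The cells were mouse lung endothelial cells (MLEC) of strain C57BL/6, taken by magnetic beads carrying PECAM-1 antibody and, after expansion, by ICAM-2 beads. Sequencing of mRNA gave 3 libraries of AM EC-KO MLEC (letters b, d, g in the labels) and 4 of WT MLEC (letters a, c, e, f). AM EC-KO mice carry *Adm*, the adrenomedullin gene, flanked by LoxP sites and a Cre recombinase under the VE-cadherin (Cdh5) promoter, which acts in endothelial cells. WT mice are given as wild type with no further alleles, and neither age nor sex is given. Each isolation pooled the lungs of 3 mice and the cells were passaged before use. The study speaks of several MLEC preparations behind the sequencing, and the labels give a letter for each library without naming its preparation.

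CDK inhibitors hold back the kinases that carry a cell through its division cycle. The CIP/KIP proteins p21 (*Cdkn1a*), p27 (*Cdkn1b*) and p57 (*Cdkn1c*) bind complexes of cyclin and CDK, whereas the INK4 proteins p16 (*Cdkn2a*), p15 (*Cdkn2b*) and p18 (*Cdkn2c*) bind CDK4 and CDK6 and keep them from D-type cyclins. *Cdkn2a* also encodes p19Arf from another first exon, which frees p53 from its ubiquitin ligase MDM2. p53 is a transcription factor of the DNA damage response that switches on *Cdkn1a* and also *Mdm2*, its own inhibitor. In cultured endothelial cells, as in other primary cells, this circuit is known for the arrest that follows stress and serial passage.

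Binding of p53 is known at a pair of 10-base elements (decamers), which have purines on the left, C and G around a pair of A or T in the middle, and pyrimidines on the right. A strict match to the decamer, which reads the same on both strands, was searched in RefSeq promoter windows of 300 bases on GRCm38.p6 (250 before and 50 after a transcript start). The table held 13 such windows for 9 of the 10 genes, *Cdkn1c* not being among them. A match was found in 4 of the 13 windows, in *Cdkn1a*, *Mdm2*, *Ccng1* and *Trp53*, and in 8.36% of all 32851 windows. The upstream *Cdkn1a* window held a pair of strict matches 12 bases apart, and 0.0731% of all windows held a pair no more than 13 bases apart. Neither of the *Cdkn2a* windows, one for each first exon, held a match. The 250 bases before the start are given for 3 genes of the p53 circuit with high FPKM, whose levels are described next. Capitals show where the strict matches lie. *Mdm2* and *Ccng1* held 1 match each and no pair, and bases beyond the windows were not searched.
*Cdkn1a* (chr17:29090729-29090978, plus strand): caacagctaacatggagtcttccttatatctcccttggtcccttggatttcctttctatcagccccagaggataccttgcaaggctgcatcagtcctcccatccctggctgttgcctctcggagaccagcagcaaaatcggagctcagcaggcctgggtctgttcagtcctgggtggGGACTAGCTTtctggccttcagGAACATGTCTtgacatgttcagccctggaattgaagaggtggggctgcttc
*Mdm2* (chr10:117710759-117711008, minus strand): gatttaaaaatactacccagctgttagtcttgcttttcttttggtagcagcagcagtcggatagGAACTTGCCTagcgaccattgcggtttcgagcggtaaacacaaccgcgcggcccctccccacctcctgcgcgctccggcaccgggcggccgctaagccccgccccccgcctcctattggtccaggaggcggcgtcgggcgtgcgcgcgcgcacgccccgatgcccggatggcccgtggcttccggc
*Ccng1* (chr11:40755287-40755536, minus strand): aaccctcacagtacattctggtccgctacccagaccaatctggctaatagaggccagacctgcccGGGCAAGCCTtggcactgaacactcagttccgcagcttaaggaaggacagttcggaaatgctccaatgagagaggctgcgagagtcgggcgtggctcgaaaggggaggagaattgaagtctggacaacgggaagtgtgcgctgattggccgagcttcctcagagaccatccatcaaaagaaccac
In *Cdkn1a* the decamers begin 73 and 51 bases before the start, in *Mdm2* the decamer begins 186 bases before it, and in *Ccng1* 185 bases before it. The 10 bases directly after the *Cdkn1a* decamer that begins 51 bases before the start miss the strict pattern at their leftmost base only. The strict search therefore left them in lower case, and the spacing of 12 bases holds for strict matches only. A match of letters does not show binding, and the other window of *Cdkn1a*, which begins at 29093519 on chromosome 17, held none.

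The deposited table gives FPKM, that is fragments scaled to transcript length and to mapped reads, so levels can be compared between genes. Depth was estimated from the steps between low values at 6.82 to 8.16 M mapped reads in AM EC-KO libraries and 7.5 to 8.04 M in WT libraries. *Adm* was at 9.31 (b), 17.2 (d) and 0.75 FPKM (g) in AM EC-KO MLEC, against 48.2 (a), 70.1 (c), 76.1 (e) and 43.8 FPKM (f) in WT MLEC, without overlap. The 12 endothelial markers summed to 2186 to 2619 FPKM in AM EC-KO libraries and 2511 to 3068 FPKM in WT libraries. These sums include *Vwf*, which was listed at 0 in 5 libraries, possibly failed estimates, with a highest value of 89.5 FPKM. All 11 markers that were tested had a fold change below 0 (median −0.19 on the log2 scale), with *Egfl7* alone at an unadjusted p under 0.05 in limma. WT e stood apart from the rest. Its fibroblast markers summed to 423 FPKM, against 45.9 to 115 FPKM in AM EC-KO libraries and 24.7 to 72.2 FPKM in the other WT libraries. *Dcn* was at 227 FPKM in WT e, and the defining marker *Lum* was above 0 in 1 library only. WT e held the highest value in 2 of the 5 fibroblast markers above 0 in every library. Its endothelial sum, 3068 FPKM, was also the highest, and it led in 6 of 11 such endothelial markers. Both counts stand against 32.1% of the 12520 tested genes above 0 in every library. *Ptprc*, *Itgam* and *Cd163* of myeloid cells are listed at 0 in all 7 libraries, whereas *Lyz2*, *Cd68*, *Fcer1g*, *Cd14* and *Csf1r* were above 0 in all 7. *Lyz2* was at 27.1 to 139 FPKM in AM EC-KO libraries, highest in d, and at 25.5 to 71.5 FPKM in WT libraries. Lung epithelial markers summed to 13.95 to 15.8 FPKM in AM EC-KO libraries and 14.4 to 25.5 FPKM in WT libraries. *Krt18* was above 0 in all 7 libraries and *Nkx2-1* at 0 in all 7. WT e held the highest epithelial sum, 25.5 FPKM, with *Krt18* at 11.65 FPKM. *Sftpc* and *Sftpb* were each at 0 in 6 libraries, with highest values of 10.3 and 2.08 FPKM. Smooth muscle and pericyte markers summed to 501 to 675 FPKM in AM EC-KO libraries and 330 to 629 FPKM in WT libraries, and myeloid markers to 54.0 to 235 FPKM and 51.5 to 129 FPKM. In bulk RNA, fewer cells of a type and less RNA per cell cannot be told apart.

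*Cdkn1a* was the most highly expressed of the 10 genes, at percentiles 96.2 to 97.7 of the tested genes of each library. By mean FPKM over the 7 libraries it was followed by *Mdm2* (141), *Cdkn2a* (134), *Ccng1* (110), *Trp53* (62.2), *Cdkn2b* (51.4), *Gdf15*, *Cdkn1b* (6.03), *Cdkn2c* (5.86) and *Cdkn1c*. *Cdkn1a* lay above *Mdm2* in 7 of 7 libraries. The order of *Mdm2* and *Cdkn2a* was not stable, since *Mdm2* was higher in 2 of 7 libraries only, and that of *Cdkn2a* and *Ccng1* held in 4 of 7. *Ccng1* exceeded *Trp53* in 6 of 7 libraries and *Trp53* exceeded *Cdkn2b* in 5 of 7. *Cdkn1b* and *Cdkn2c* could not be ordered either (4 of 7). So the cultured cells had high levels of p21 mRNA and of *Cdkn2a* mRNA, and protein was not measured. The mRNA of p27 and p18 lay in the middle of the tested genes, at percentiles of 39.9 to 51.6 for *Cdkn1b* and 35.9 to 57.6 for *Cdkn2c*. That of p57 was low, at most at percentile 28.2.

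The genotypes were compared to see whether endothelial deletion of *Adm* comes with a difference in these brakes on the cell cycle. The log2 of FPKM + 1 was tested with limma over 15604 genes that averaged 0.1 FPKM or more and were above 0 in 3 or more libraries, with Benjamini-Hochberg adjustment over all of them. All 10 genes passed this filter. None passed FDR 0.1 (adjusted p = 0.95 to 0.98 from limma), and 0 had an unadjusted p under 0.05, against 0.0641% and 3.07% of all genes tested. In 0 of the 10 did AM EC-KO and WT libraries separate without overlap, whereas 5.13% of all genes tested did, 2.91% with each AM EC-KO library higher and 2.22% with each lower. The fold change was above 0 in 7 genes and below 0 in 3, with a median of 0.14 on the log2 scale against −0.01 over all genes. For single genes an exact permutation test, two-sided over 35 arrangements of the labels, gave p = 0.171 to 0.914, where 0.057 is the smallest it allows. *Adm* itself, at a log2 fold change of −3.10 (SE 0.75), had an adjusted p of 0.95 in limma. A gene that did not pass is not thereby equal in the genotypes, and the 95% intervals given next tell which sizes of change are still possible.

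**Figure D1:**
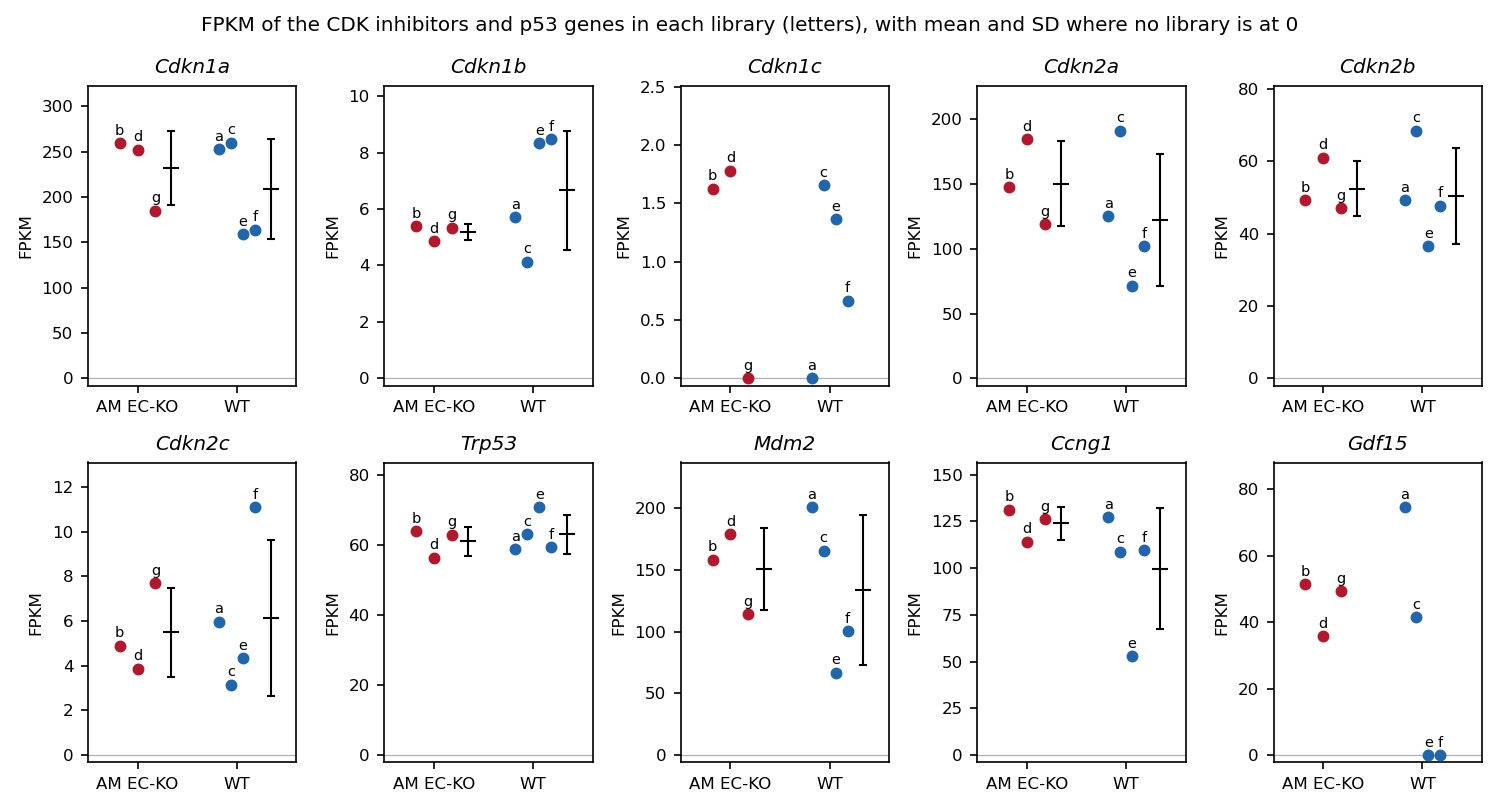
FPKM (y axis, from 0) of the 10 genes in 3 AM EC-KO libraries (red, left) and 4 WT libraries (blue, right), labelled by library letter, with mean and SD (black) for genes above 0 in every library. The genotypes overlap in every panel, WT e is the lowest point for *Cdkn1a*, *Cdkn2a*, *Cdkn2b*, *Mdm2* and *Ccng1*, and *Gdf15* lies at 0 in WT e and f.

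Of the CIP/KIP genes, *Cdkn1a* (chr17:29090976-29100727, plus strand, GRCm38) was at 259 (b), 252 (d) and 185 FPKM (g) in AM EC-KO MLEC, against 253 (a), 260 (c), 159 (e) and 164 FPKM (f) in WT MLEC. The values fell into a high set (a to d) and a low set (e, f and g), each with libraries of both genotypes. Its mean was 232 ± 41.1 FPKM (SD, n = 3) in AM EC-KO MLEC and 209 ± 55.0 FPKM (SD, n = 4) in WT MLEC, with a log2 fold change of 0.17 (SE 0.23) and a 95% interval of 0.774-fold to 1.64-fold. *Cdkn1b* (chr6:134920401-134925513, plus strand) was at 5.39 (b), 4.86 (d) and 5.33 FPKM (g) in AM EC-KO MLEC, against 5.71 (a), 4.13 (c), 8.34 (e) and 8.47 FPKM (f) in WT MLEC. All 3 AM EC-KO values lay close together and below the WT mean of 6.66 ± 2.11 FPKM (SD, n = 4), but above WT c, and the log2 fold change was −0.26 (SE 0.24, 95% interval 0.559-fold to 1.24-fold). *Cdkn1c*, an imprinted gene (chr7:143458339-143461050, minus strand), was at 1.63 (b), 1.78 (d) and 0 FPKM (g) in AM EC-KO MLEC, against 0 (a), 1.66 (c), 1.36 (e) and 0.667 FPKM (f) in WT MLEC. The values above 0 are worth about 8.81 to 23.4 reads at the estimated depths. Each genotype had a library at 0, which can be a failed estimate, and no order of the genotypes could be read. An antisense gene, *Gm44732*, overlaps *Cdkn1c*, and *AC167363.2* on the minus strand overlaps *Cdkn1a*. Counting by strand is not given in the sources used here.

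Of the INK4 genes, *Cdkn2a* (chr4:89274471-89294653, minus strand) was at 148 (b), 185 (d) and 119 FPKM (g) in AM EC-KO MLEC, against 125 (a), 191 (c), 71.6 (e) and 102 FPKM (f) in WT MLEC. The highest and the lowest value were both WT. The mean was 150 ± 32.9 FPKM (SD, n = 3) in AM EC-KO MLEC and 122 ± 50.8 FPKM (SD, n = 4) in WT MLEC, with a log2 fold change of 0.36 (SE 0.33, 95% interval 0.752-fold to 2.2-fold), which was 0.14 without WT e and 0.60 without WT c. The table has a single value per library for this gene, so p16 and p19Arf transcripts were not told apart. *Cdkn2b*, its neighbour (chr4:89306299-89311039, minus strand), was at 49.3 (b), 61.1 (d) and 47.0 FPKM (g) in AM EC-KO MLEC, against 49.3 (a), 68.5 (c), 36.6 (e) and 47.8 FPKM (f) in WT MLEC (log2 fold change 0.08, SE 0.21). As in *Cdkn2a*, WT c was highest and WT e lowest, with AM EC-KO d in second place. *Cdkn2c* (chr4:109660876-109667189, minus strand) was at 4.9 (b), 3.87 (d) and 7.69 FPKM (g) in AM EC-KO MLEC, against 5.97 (a), 3.16 (c), 4.34 (e) and 11.1 FPKM (f) in WT MLEC (log2 fold change −0.06, SE 0.39). Its order differed from that of the other INK4 genes, with WT f and AM EC-KO g highest and WT c lowest.

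*Trp53* was the most even of the genes above 0 in every library, with a coefficient of variation of 7.53% over the 7 libraries. It lies at chr11:69580359-69591873 on the plus strand. Its level was at 64.0 (b), 56.3 (d) and 62.9 FPKM (g) in AM EC-KO MLEC, against 58.8 (a), 63.0 (c), 70.7 (e) and 59.3 FPKM (f) in WT MLEC. The means were 61.1 ± 4.14 FPKM (SD, n = 3) in AM EC-KO MLEC and 63.0 ± 5.5 FPKM (SD, n = 4) in WT MLEC, and the 95% interval of the fold change, 0.839-fold to 1.12-fold, was the narrowest of the 10. These values are of mRNA, and p53 protein, which is largely set by its turnover, was not measured here.

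The targets of p53 varied more than *Trp53* itself. *Mdm2*, which encodes the ligase that marks p53 for degradation (chr10:117688875-117710758, minus strand), was at 158 (b), 179 (d) and 114 FPKM (g) in AM EC-KO MLEC, against 201 (a), 166 (c), 66.8 (e) and 100.5 FPKM (f) in WT MLEC. WT held the highest and the lowest values, 3.01-fold apart. The log2 fold change was 0.27 (SE 0.39) and was −0.02 without WT e. *Ccng1*, cyclin G1, which recruits a phosphatase to MDM2 (chr11:40748552-40755311, minus strand), was at 131 (b), 114 (d) and 126 FPKM (g) in AM EC-KO MLEC, against 127 (a), 109 (c), 52.8 (e) and 110 FPKM (f) in WT MLEC. Apart from WT e the 6 libraries spanned 109 to 131 FPKM, and all 3 AM EC-KO values lay above the WT mean of 99.6 ± 32.3 FPKM (SD, n = 4). The log2 fold change of *Ccng1* was 0.38 (SE 0.29, 95% interval 0.808-fold to 2.1-fold, exact permutation p = 0.171), and it was 0.10 without WT e.

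*Gdf15*, a secreted factor of the TGF-beta superfamily that p53 and the integrated stress response both switch on (chr8:70629393-70632456, minus strand), was at 51.4 (b), 35.8 (d) and 49.2 FPKM (g) in AM EC-KO MLEC, against 74.6 (a) and 41.6 FPKM (c) and a listed 0 in both e and f in WT MLEC. Above 0 the genotypes overlapped, with the highest value in WT. At the estimated depths the values above 0 stand for about 327 to 753 reads, so a 0 beside them can be a failed estimate. Such zeros were widespread. Per library, 190 to 247 tested genes stood at 0 although the median of their values above 0 was at least 5 FPKM, and 7 tested genes, *Gdf15* included, were at 0 in WT e and f and at 5 FPKM or more in every other library. The authors' group value for *Gdf15*, which is not a mean of these columns, was 53.6 FPKM for AM EC-KO and 42.1 FPKM for WT. The log2 fold change of 2.61 (SE 1.71, adjusted p = 0.95 from limma) depends on the zeros, and with zeros taken as missing it turned to −0.30 (SE 0.28).

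**Figure D2:**
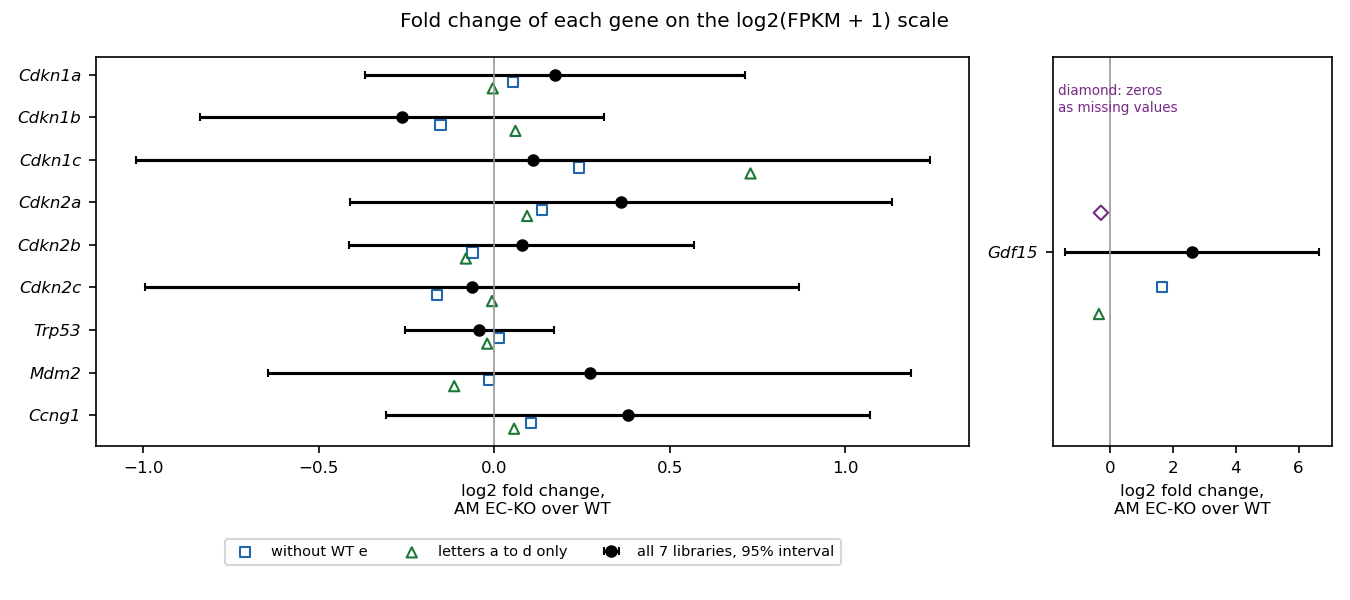
Log2 fold change of FPKM + 1, AM EC-KO over WT (x axis), for each gene, with its 95% interval from limma over all 7 libraries (filled circles), without WT e (open squares) and in letters a to d only (open triangles), *Gdf15* having an axis of its own and a diamond for zeros taken as missing. Every interval includes 0, and without WT e *Mdm2* moves to −0.02 and *Ccng1* to 0.10.

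The larger differences among these genes lay between libraries of the same genotype. WT e held the lowest value in 5 of the 8 genes above 0 in every library, *Cdkn1a*, *Cdkn2a*, *Cdkn2b*, *Mdm2* and *Ccng1*, against 26.3% of all 12520 tested genes above 0 in every library. It held the highest value of *Trp53*. As given before, WT e held the highest fibroblast sum, 423 FPKM, and the highest endothelial sum, 3068 FPKM. The part of either in these low values was not tested. In addition, *Cdkn1a*, *Cdkn2a*, *Cdkn2b* and *Mdm2* were higher in each of the libraries a to d than in each of e, f and g (4 of 8, against 7.35% of the 12520 genes). *Mdm2* was at 158 to 201 FPKM in a to d and 66.8 to 114 FPKM in e to g, and *Cdkn1a* at 252 to 260 FPKM and 159 to 185 FPKM. The labels do not say what the letters stand for, and this split was looked at because earlier results of these data had shown it, so it is a description with no test. *Trp53* did not separate in this way, with 56.3 to 64.0 FPKM in a to d and 59.3 to 70.7 FPKM in e to g.

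**Figure D3:**
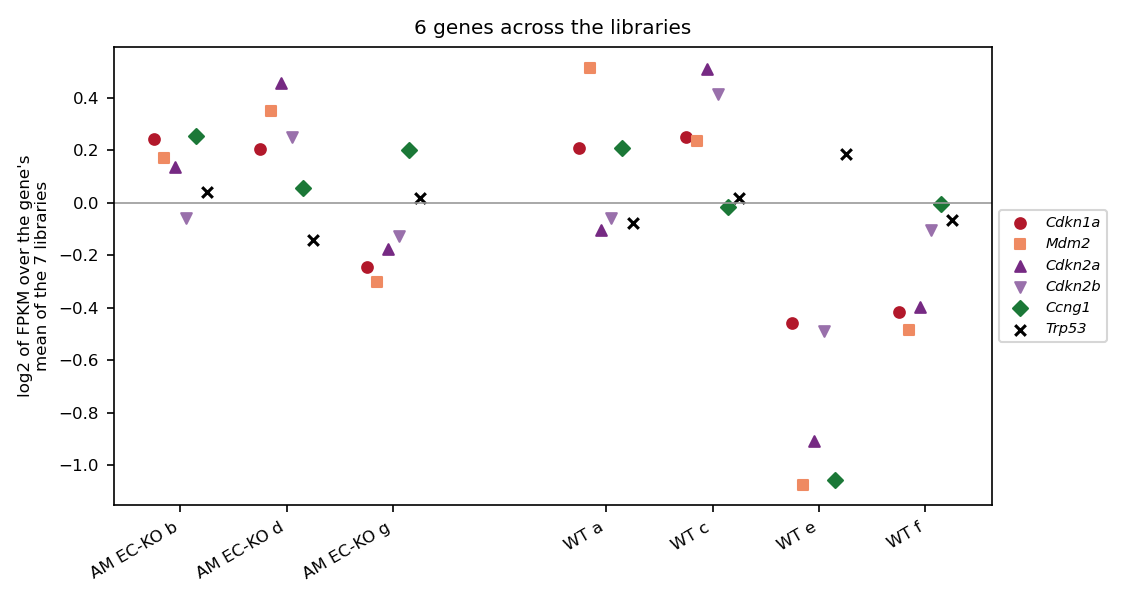
Log2 of each library's FPKM over the gene's mean of the 7 libraries (y axis) for 6 genes, with the AM EC-KO libraries on the left and the WT libraries on the right. *Mdm2*, *Cdkn2a* and *Ccng1* lie lowest in WT e, *Cdkn1a* and *Mdm2* lie below 0 in AM EC-KO g, WT e and WT f, and *Trp53* (crosses) stays near 0.

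Within the letters a to d, b and d against a and c, the log2 fold changes were 0.00 for *Cdkn1a*, −0.11 (SE 0.13) for *Mdm2*, 0.09 (SE 0.25) for *Cdkn2a*, 0.06 (SE 0.12) for *Ccng1* and −0.37 (SE 0.35) for *Gdf15*. They were 0.06 (SE 0.19) for *Cdkn1b*, 0.73 (SE 0.52) for *Cdkn1c*, which has a zero in WT a, −0.08 (SE 0.21) for *Cdkn2b*, −0.01 (SE 0.31) for *Cdkn2c* and −0.02 (SE 0.09) for *Trp53*. None of these passed FDR 0.1 in limma. With g alone against e and f, a description with 1 AM EC-KO library and no test, the log2 fold changes were 0.19 for *Cdkn1a*, 0.47 for *Mdm2*, 0.47 for *Cdkn2a*, 0.72 for *Ccng1*, 0.16 for *Cdkn2b*, 0.11 for *Cdkn2c*, −0.04 for *Trp53* and −0.57 for *Cdkn1b*. WT e is 1 of the 2 WT libraries here, and whether the genotypes differ more in one set of letters than in the other was not tested.

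Other genes of the same circuits were followed as lists. Of 24 other p53 targets 23 were tested, and 0 passed FDR 0.1 or an unadjusted p under 0.05 in limma. Of these, 12 had a fold change above 0 and 11 below, with a median of 0.01 on the log2 scale. *Pmaip1*, which encodes the BH3-only protein NOXA, was at 32.2 (b), 28.1 (d) and 21.5 FPKM (g) in AM EC-KO MLEC, against 25.4 (a), 29.0 (c), 12.1 (e) and 16.9 FPKM (f) in WT MLEC (log2 fold change 0.43, SE 0.30). *Phlda3*, an inhibitor of AKT, was at 128 ± 4.05 FPKM (SD, n = 3) in AM EC-KO MLEC and 113 ± 18.6 FPKM (SD, n = 4) in WT MLEC. In these genes too WT e was lowest, as in 10 of the 22 targets above 0 in every library, against 26.3% of the 12520 genes. *Perp* and *Bax* were chosen after their values were seen. *Perp*, a p53 target of desmosomes, spanned 31.2 to 51.2 FPKM in AM EC-KO libraries and 23.0 to 44.7 FPKM in WT a, c and f, with 0.837 FPKM in WT e. *Bax*, which opens the mitochondrial outer membrane in apoptosis, was at 225 ± 4.15 FPKM (SD, n = 3) in AM EC-KO MLEC and 209 ± 20.2 FPKM (SD, n = 4) in WT MLEC. The list summed to 924 to 982 FPKM in AM EC-KO libraries and 797 to 988 FPKM in WT libraries.

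Of 13 regulators and partners of p53, 10 were tested and 8 of them had a fold change below 0, with a median of −0.18. WT e, the library with the highest fibroblast and endothelial sums, held the highest value in 6 of the 8 that were above 0 in every library. This stands against 32.1% of the 12520 genes, and the part of those markers in the shift was not tested. With adjustment over all genes 0 passed FDR 0.1, and at an unadjusted p under 0.05 in limma 2 were lower and 1 was higher, against 3.07% of all genes tested. *Trp53bp1*, a scaffold at DNA breaks, spanned 11.9 to 14.5 FPKM in AM EC-KO libraries and 14.2 to 22.7 FPKM in WT libraries (log2 fold change −0.43, SE 0.16). *Daxx*, a histone chaperone that binds MDM2, was at 10.4 FPKM in AM EC-KO d and is listed at 0 in b and g, against 9.79 to 14.1 FPKM in WT. The gene higher at the unadjusted threshold was the checkpoint kinase gene *Chek1*, named after its values were seen, at 2.41 (b), 1.96 (d) and 7.37 FPKM (g) in AM EC-KO MLEC, against 3.11 FPKM in WT e and 0 in WT a, c and f. *Daxx* passed FDR 0.1 when AM EC-KO d was left out (limma adjusted p = 0.011, and 0.85 to 1.0 under the other alternatives), where both remaining AM EC-KO values are the zeros. Its log2 fold change of −2.48 (SE 0.85) was −0.14 (SE 0.24) with zeros as missing values. *Trp63*, *Trp73* and *Sirt1* are listed at 0 in all 7 libraries. Listed zeros, those of *Sirt1* and *Chek1* included, can be failed estimates and do not show that the mRNA was absent.

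Of 18 genes listed for CDKs, cyclins and RB proteins 17 were tested, 9 with a fold change above 0 and 8 below (median 0.01). This list also holds *E2f1*, *E2f4*, *Skp2*, *Cks1b*, *Cdkn3* and *Cdkn2d*. The last is a CDK inhibitor gene outside those described (log2 fold change 0.24, SE 0.37). All 14 proliferation genes were tested, 5 above and 9 below (median −0.12). In both lists 0 genes passed FDR 0.1 or an unadjusted p under 0.05 in limma. *Cdk2*, the kinase that p21 and p27 inhibit, was at 11.1 ± 1.98 FPKM (SD, n = 3) in AM EC-KO MLEC and 13.6 ± 3.1 FPKM (SD, n = 4) in WT MLEC, and *E2f1*, a transcription factor held by RB, at 12.5 ± 0.864 FPKM in AM EC-KO MLEC and 10.3 ± 3.14 FPKM in WT MLEC. *Mcm3*, a subunit of the replicative helicase, was at 20.9 ± 1.36 FPKM in AM EC-KO MLEC and 24.5 ± 3.28 FPKM in WT MLEC, and *Rrm2*, a subunit of ribonucleotide reductase, at 64.0 ± 6.83 FPKM in AM EC-KO MLEC and 47.0 ± 19.8 FPKM in WT MLEC. The proliferation genes summed to 292 to 433 FPKM in AM EC-KO libraries and 270 to 500.5 FPKM in WT libraries. Of the 14, 7 were lower in each of a to d than in each of e to g, against 12.8% of the 12520 genes. The sum of the list was 318 FPKM in WT e, 500.5 FPKM in WT f and 433 FPKM in AM EC-KO g, against 270 to 330 FPKM in a to d. *Rrm2* was lowest in WT e, at 20.5 FPKM. Any relation of these genes to *Cdkn1a* or *Mdm2* was not tested.

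Of 12 senescence-associated genes 0 passed FDR 0.1 or an unadjusted p under 0.05 in limma (3 above 0, 9 below, median −0.17). WT e held the highest value in 6 of the 12, against 32.1% of the 12520 genes. The part of its fibroblast and endothelial markers in this was not tested. *Igfbp7* was at 413 ± 26.2 FPKM in AM EC-KO MLEC and 348 ± 53.4 FPKM in WT MLEC. *Cxcl1*, a neutrophil chemokine, was at 3.85 (b), 2.54 (d) and 4.03 FPKM (g) in AM EC-KO MLEC, against 5.91 (a), 7.18 (c), 47.1 (e) and 5.2 FPKM (f) in WT MLEC, without overlap (log2 fold change −1.37, SE 0.72, adjusted p = 0.95 from limma). Without WT e its log2 fold change was −0.67 (SE 0.20). Of 9 genes of the integrated stress response 1 passed FDR 0.1, against 0.0641% of all genes tested. This was *Ddit3*, the transcription factor CHOP, with 32.3 (b), 41.8 (d) and 47.7 FPKM (g) in AM EC-KO MLEC and 0 listed in each of WT a, c, e and f (limma adjusted p = 3.8e-05). Zeros of this kind can be failed estimates, and the adjusted p of *Ddit3* rests on them. With zeros as missing values *Ddit3* had no WT value and could not be fitted. *Trib3*, a pseudokinase that DDIT3 switches on, was at 9.54 (b), 9.99 (d) and 19.5 FPKM (g) in AM EC-KO MLEC, against 10.6 (a), 15.5 (c), 23.6 (e) and 21.3 FPKM (f) in WT MLEC. The list as a whole had 3 genes above 0 and 6 below, with a median of −0.07.

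**Figure D4:**
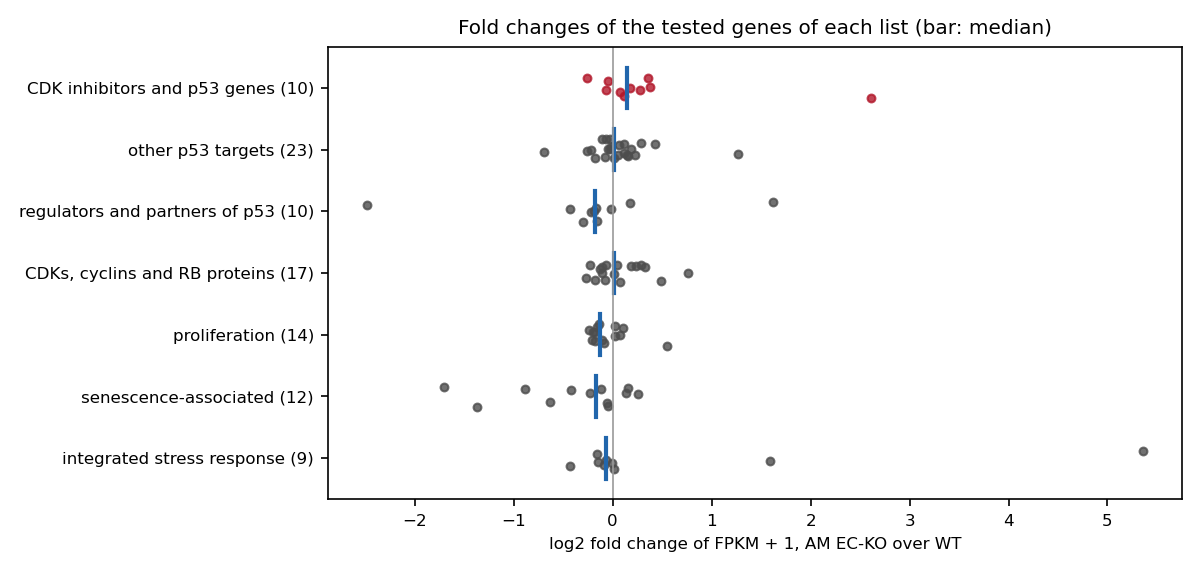
Log2 fold change of FPKM + 1, AM EC-KO over WT (x axis), of each tested gene (dots) in 7 lists (number tested in parentheses), with the median of the list as a bar. The medians lie between −0.18 and 0.14, and the rightmost dots are *Ddit3* (grey) and *Gdf15* (red), whose places depend on the pseudocount because WT libraries are listed at 0.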

How the data were processed

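The authors removed adapters with Cutadapt, mapped single reads to GRCm38 with TopHat2 2.0.6 and deposited 1 FPKM value per gene and library beside a group value per genotype. The methods name SeqSolve, and the submitters' processing notes name Cufflinks and Cuffdiff. The deposited fold changes, test statistics, p-values, q-values and splicing columns were not used. Of the 38472 genes, 172 have no library values.

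From the library FPKM, log2(FPKM + 1) entered limma 3.58.1 (moderated with an intensity trend, R 4.3.3), at FDR 0.1 over 15604 genes. No covariate or block was fitted. Exact permutation used scipy 1.17.1 in Python 3.11.15. The members and lists were chosen with earlier results of these data known. Gene spans are from GENCODE on GRCm38. Named are the 10 genes, the 2 genes of smallest p in each pathway list, any past FDR 0.1 and cell type markers that bear on a result. On simulated data of 15604 genes, limma called 71% of 100 genes changed by a log2 of 1 and 92% of 100 changed by a log2 of 2, beside 23 unchanged genes. The simulated noise was independent between genes, with its largest spreads capped, no zeros and no library standing apart. These rates therefore do not carry over to the 10 genes, for which the standard errors and intervals apply.

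Mapped reads were estimated from genes with 1 transcript of over 1500 bp and an assumed fragment of 200 bases, with 55.0 to 64.6% of low values within 0.1 read of a whole number (20% by chance), so no count test was run. Deposited intervals covered a median of 100% of the gene span on the plus strand and 1.81% on the minus strand, where *Mdm2*, *Ccng1*, *Gdf15* and 4 of the CDK inhibitors lie. The low values of both strands followed the length of the whole transcript alike (52.5 to 65.4% and 57.2 to 64.3%). Alternatives were other pseudocounts, filters, scalings, moderation and weights, zeros as missing values, library letters as a covariate and each library left out.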

Additional observations from a re-analysis of the deposited data

Results flagged for a closer look

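*Cxcl1* was at 47.1 FPKM in WT e, far from the 5.2 to 7.18 FPKM of the other WT libraries. The gap to the next WT value was 0.95 of the range of the WT values. The cutoff for flagging was smaller, and about 1 of 20 genes would pass it by chance in groups of 4 libraries. That rate assumes normally distributed FPKM values. The highest and the lowest WT value of 21 genes were looked at, and the rate for a gap of 0.95 was not computed. Other genes were not screened, and *Cxcl1* did not stand alone. WT e was highest in 6 of the 12 senescence-associated genes. Among them were *Igfbp5* (77.1 FPKM, against 0.636 to 6.51 FPKM in the other WT libraries) and *Il6* (29.8 FPKM, against 2.28 to 4.71 FPKM).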

How the results depend on the processing

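The number of genes called at FDR 0.1, 10 in all, was 18 with a pseudocount of 0.1 and 17 with 0.01. It was 0 with zeros as missing values (453 at an unadjusted p under 0.05 in limma) and 0 within letters a to d (571). The subsets a to d and e to g were chosen after seeing the data. Leaving out each library gave 8 to 39, with 39 without WT a, 22 without WT c, 27 without WT e and 21 without WT f. The alternatives called 0 of the 10 genes described, the values within e to g (1 AM EC-KO library) being given without a test, and *Gdf15* alone reached an unadjusted p under 0.05, without WT a (0.047, limma, log2 fold change 3.72).

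For these genes the sign of the log2 fold change turned 20 times, against 168 values that kept it. Some of the 168 could not turn, since other filters and moderation leave the estimate itself unchanged. The same holds for zeros as missing values in genes without a zero. Within letters a to d *Cdkn1a* was at −0.004194, *Cdkn1b* at 0.060, *Cdkn2b* at −0.081, *Mdm2* at −0.11 and *Gdf15* at −0.37. *Gdf15* was at −0.30 with zeros as missing values and *Cdkn1c* at −0.19 with a pseudocount of 0.01 (exact permutation p = 0.8). *Cdkn2b* was at −0.021 with array weights. *Cdkn2c* was at 0.041 with the letters as a covariate and at 0.11 within letters e to g. Leaving out each library gave 0.054 to 0.33 for *Cdkn1a*, −0.44 to −0.15 for *Cdkn1b*, 0.14 to 0.60 for *Cdkn2a*, 0.10 to 0.52 for *Ccng1*, 1.64 to 3.72 for *Gdf15*, −0.17 to 0.59 for *Cdkn1c*, −0.062 to 0.23 for *Cdkn2b*, −0.30 to 0.23 for *Cdkn2c*, −0.076 to 0.014 for *Trp53* and −0.016 to 0.51 for *Mdm2*. The exact permutation p then ranged over 0.27 to 1 for *Cdkn1c*, 0.4 to 0.93 for *Cdkn2b*, 0.6 to 1 for *Cdkn2c*, 0.5 to 0.93 for *Trp53* and 0.3 to 1 for *Mdm2*. The causes were not tested. Of the 10 genes *Cdkn1c* rested on the fewest estimated reads. No paired analysis was possible because the labels give letters and no replicate numbers shared by the genotypes.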
